A study of Homo sapiens with 6 samples.

Results

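The genes described here are 53 human genes of chondrocyte identity, cartilage matrix and chondrocyte hypertrophy, out of the 28395 genes in the deposited count table. They were chosen by name, as 33 genes of cartilage matrix and chondrocyte identity and 20 genes of hypertrophy, mineralization and bone, whatever their counts, since which of them the cells still transcribe is part of the question. They were measured in TC28a2, an immortalised human chondrocyte line, transfected for 48 h with a ZEB1 overexpression vector or with a control vector, with 3 libraries for each vector. ZEB1 is a zinc finger transcription factor known chiefly as a repressor in epithelial to mesenchymal transition. The labels number the replicates without saying whether each was a culture of its own, so a p-value here refers to library-to-library spread that may be technical. Neither the promoter that drives the vector nor the share of cells that took it up is given in the sources used here.

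Chondrocytes are the cells of cartilage, and they lay down a matrix of type II, IX and XI collagen fibrils filled with the proteoglycan aggrecan. SOX9 is the transcription factor that sets this programme, and it acts with SOX5 and SOX6 on genes such as COL2A1 and ACAN. In the growth plate chondrocytes go on to hypertrophy, which is driven by RUNX2 and RUNX3 and marked by COL10A1, and the matrix then mineralizes. Chondrocytes kept in culture are known to lose much of this programme and to make collagen of the fibroblast kind.

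The ZEB1 libraries were shallower than the controls, with 1277632, 1621270 and 3316228 counts in ZEB1 replicates 1, 2 and 3, against 5832751, 5359200 and 5878640 in control replicates 1, 2 and 3. CPM is a count divided by its library's total and put on a common scale. In CPM 3 counts amounted to 0.905 to 2.35 in the ZEB1 libraries and to 0.510 to 0.560 in the controls. This is used as the floor for reading a level, while a gene is listed as having a count from 1 count on. ZEB1 itself had 13805, 21844 and 23143 counts in the ZEB1 libraries, against 203, 114 and 131 in the controls, which matches the labels. Over all 11329 genes that passed the filter on low counts, 1 gene, ZEB1, passed an edgeR adjusted p of 0.05, which is 0.00883% of the genes tested. ZEB1 replicates 1 and 2 stand apart from the other 4 libraries in depth, so results of the genes described here that rest on them are also given without them. Leaving out both keeps ZEB1 replicate 3 as the only ZEB1 library, with no spread between ZEB1 libraries. Values without both are therefore given as fold changes only.

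Both the cartilage and the hypertrophy genes were mostly at or near 0 counts in TC28a2 cells, with either vector. Of the 53 genes 13 had no count in any library, 32 had some counts but too few to be tested, and 8 were tested. Those 8 were SOX9, COL27A1, BGN and FRZB among the cartilage genes and RUNX2, RUNX3, ENPP1 and ANKH among the hypertrophy genes. They held 94.97% of all counts of the 53 genes. None of the 8 passed the edgeR threshold, and the smallest adjusted p was 0.368, for RUNX3. None of the 53 passed with limma-voom either, with or without sample quality weights (1.36% and 0.512% of all genes called), with no low-count filter (0.693%) or without both shallow ZEB1 libraries (0.0154%), and DESeq2, which called 11.6%, gave none of them an adjusted p. At an unadjusted p under 0.05 there was 1 of the 8, again RUNX3, beside 9.4% of all genes tested.

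**Figure D1:**
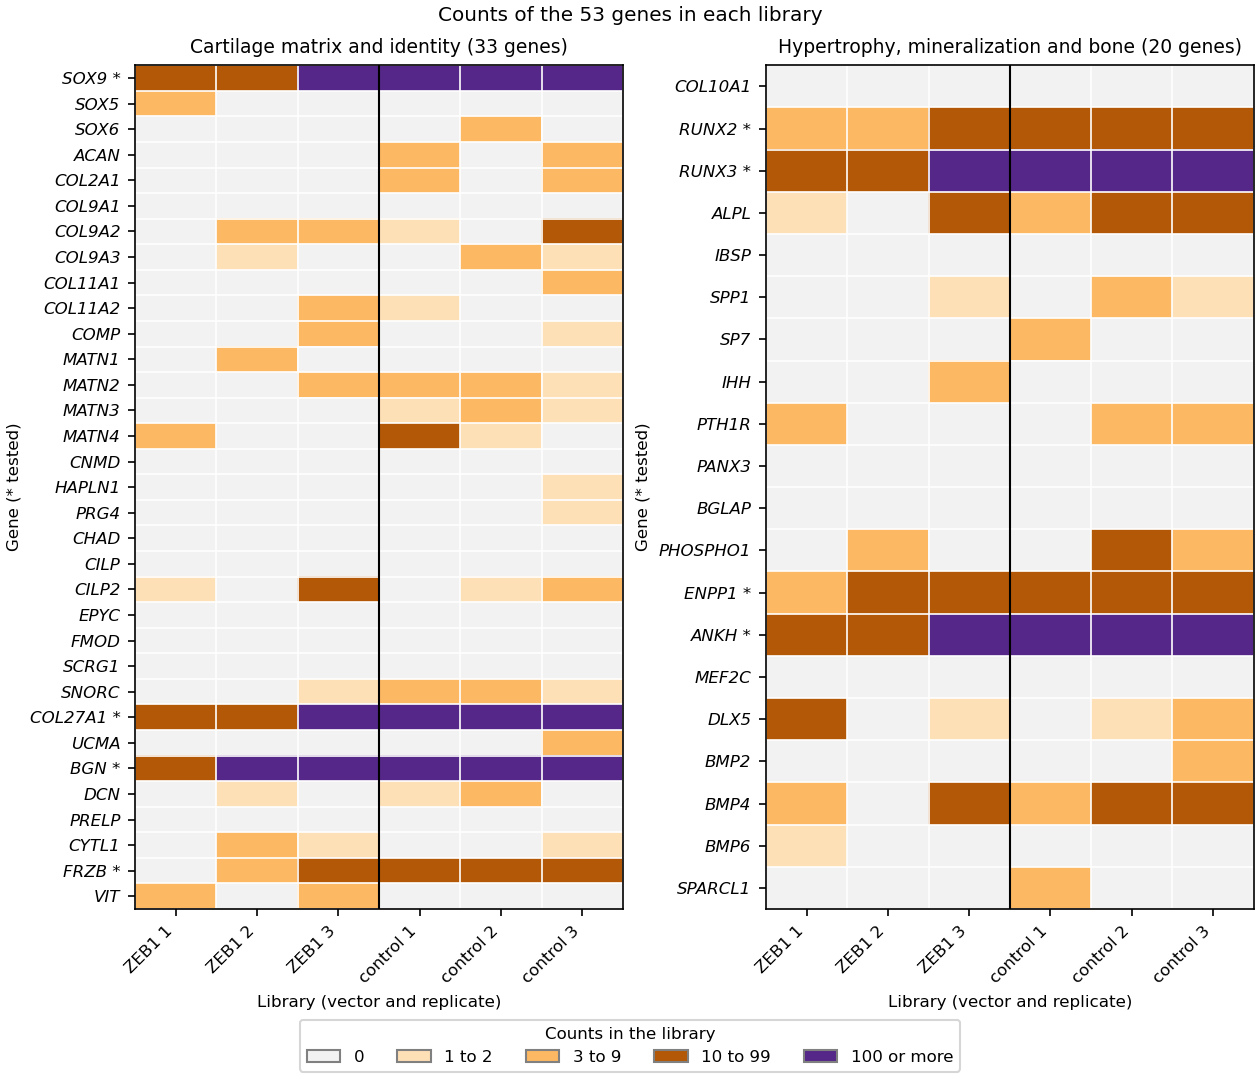
Counts of the 53 genes in each library, as colour classes from 0 to 100 or more, with genes in rows, libraries in columns and the ZEB1 libraries left of the black line. Of these genes 8 were tested (marked with an asterisk), and 13 rows are at 0 counts in all 6 libraries.

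ZEB1 is known to bind the E-box CACCTG, so the start site windows of the tested genes with the most counts are shown with that motif marked. The windows are RefSeq sequences of GRCh38.p14, from 250 bases before an annotated start to 50 bases after it, written 5′ to 3′ on the strand of the gene. Capitals mark CACCTG or its reverse complement CAGGTG. SOX9 was 1 of 9 genes with no entry in that table.
RUNX3 upstream start, chr1:24964961-24965260, minus strand: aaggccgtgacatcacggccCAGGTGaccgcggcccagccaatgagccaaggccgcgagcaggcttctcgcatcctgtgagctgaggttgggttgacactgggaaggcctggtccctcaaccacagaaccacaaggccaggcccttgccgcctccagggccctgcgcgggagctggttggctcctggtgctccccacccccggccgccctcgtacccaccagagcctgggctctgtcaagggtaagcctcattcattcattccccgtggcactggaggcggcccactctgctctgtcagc
RUNX3 downstream start, chr1:24930227-24930526, minus strand: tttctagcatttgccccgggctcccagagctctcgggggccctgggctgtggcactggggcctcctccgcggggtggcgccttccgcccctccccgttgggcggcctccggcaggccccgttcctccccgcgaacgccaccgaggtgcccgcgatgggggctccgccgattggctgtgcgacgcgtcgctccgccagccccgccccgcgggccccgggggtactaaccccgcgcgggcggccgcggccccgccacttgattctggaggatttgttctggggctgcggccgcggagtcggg
BGN, chrX:153494730-153495029, plus strand: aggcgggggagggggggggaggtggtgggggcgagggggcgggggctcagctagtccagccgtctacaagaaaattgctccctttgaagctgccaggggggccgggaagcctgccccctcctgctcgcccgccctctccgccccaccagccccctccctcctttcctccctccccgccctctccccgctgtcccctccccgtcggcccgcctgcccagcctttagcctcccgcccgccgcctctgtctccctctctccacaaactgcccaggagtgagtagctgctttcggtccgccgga
COL27A1, chr9:114155287-114155586, plus strand: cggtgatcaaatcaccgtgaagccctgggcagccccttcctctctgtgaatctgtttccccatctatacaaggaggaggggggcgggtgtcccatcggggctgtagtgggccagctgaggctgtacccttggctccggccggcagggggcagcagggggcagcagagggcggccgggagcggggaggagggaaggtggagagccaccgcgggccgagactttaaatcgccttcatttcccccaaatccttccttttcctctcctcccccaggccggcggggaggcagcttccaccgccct

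The upstream RUNX3 window held the motif once, in the orientation CAGGTG, with its first base at position -230 from the start. The downstream RUNX3 window and the BGN and COL27A1 windows held no match. Of the 75 windows of the 44 genes with an entry, 6 held a match, which is 8.0%, beside 20.6% of the 35116 windows of the same length in the whole table. The 6 were single windows of COL9A2, CILP, UCMA, RUNX3, SPP1 and MEF2C. A match is not a binding site, and a window without one says only that these letters are not in it. Among the 8 tested genes RUNX3 was thus the one with a match, in 1 of 9 windows from the 7 that had an entry.

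SOX9 (Entrez 6662, chromosome 17, 72121020 to 72126416, GRCh38.p14 as all positions here) was the transcript of the SOX trio that the cells held in quantity. It had 88, 95 and 220 counts in the ZEB1 libraries, against 338, 356 and 508 in the controls. Scaled to library size by TMM, this was 78.2, 61.1 and 65.5 CPM with the ZEB1 vector and 54.2, 64.9 and 82.9 CPM in the controls. The ZEB1 values lay inside the range of the controls. The means were 68.3 ± 8.88 CPM with the ZEB1 vector and 67.3 ± 14.5 CPM in the controls (SD, n = 3 each), a log2 fold change of 0.01 (SE 0.21, edgeR adjusted p of 0.992). Its sign was not fixed, since the value was -0.12 when libraries were scaled by their totals alone and -0.13 to 0.19 on leaving out single libraries. SOX5 and SOX6, the partners of SOX9, had 5 counts in ZEB1 replicate 1 and 7 counts in control replicate 2 as their sole counts. A level of either was not detectable in the other libraries at this depth.

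Of the 33 cartilage genes, 8 had no count in any library. They were the type IX collagen chain COL9A1, the cartilage glycoprotein CNMD, the leucine-rich repeat proteins CHAD, EPYC, FMOD and PRELP, the intermediate layer protein CILP, and SCRG1. ACAN, which encodes aggrecan, had 0 counts in each ZEB1 library and 7, 0 and 6 in control replicates 1, 2 and 3. COL2A1, which encodes the chain of type II collagen, had 0 counts in each ZEB1 library and 3, 0 and 8 in the controls. Both genes that define cartilage matrix were thus near the floor in the control cells already. At the summed rate of the controls, the ZEB1 libraries together would hold 4.73 ACAN counts and 4.005 COL2A1 counts, and counting error alone puts the upper 95% limit of the ratio per total counts, ZEB1 over control, at 0.901 for ACAN and 1.09 for COL2A1. Control replicate 2 was itself at 0 for both genes, so the libraries of the 2 vectors overlapped, and no difference can be read from these counts. The matrilin MATN3 had 0 counts in each ZEB1 library and 2, 7 and 2 in the controls. Its ZEB1 libraries thus all lay below the controls, as in 8.16% of the genes tested, but MATN3 had too few counts to be tested. At the summed rate of the controls the ZEB1 libraries together would hold 4.005 counts, and the upper 95% limit of its ratio was 1.09. These limits hold counting error alone and are too narrow, since counts spread more than that between libraries, as given below. Among the untested genes ACAN alone had an upper limit under 1. The lower limit was above 1 for CILP2 (1.55), CYTL1 (2.93), DLX5 (1.31), BMP4 (1.37), COL11A2, SOX5, MATN1, VIT and IHH. No common direction can be read from these limits. The defining markers of cartilage were thus absent or near 0, and chondrocyte is used here only as the labelled cell type of the line.

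The other fibril genes had few counts, and those lay in different libraries from gene to gene. COL9A2 had 0, 6 and 3 counts in the ZEB1 libraries and 2, 0 and 12 in the controls. COL9A3 had 1 count over the ZEB1 libraries and 8 over the controls, and COL11A2 5 and 1. COL11A1 had its 4 counts in control replicate 3. The matrix adaptor COMP had 3 counts with the ZEB1 vector and 1 in the controls. MATN2 had 0, 0 and 3 counts in the ZEB1 libraries, against 8, 3 and 2 in the controls, and MATN4 had 3, 0 and 0, against 10, 1 and 0. Neither the direction nor the size of a difference can be read from such counts.

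CILP2, a relative of CILP, had 1, 0 and 11 counts in the ZEB1 libraries and 0, 1 and 7 in the controls. The secreted protein gene CYTL1 had 0, 9 and 1 counts in the ZEB1 libraries and 0, 0 and 2 in the controls. In both genes most counts on each side came from 1 library. The cartilage genes with 1 to 9 counts in all also included SNORC, DCN, VIT, MATN1, UCMA, HAPLN1 and PRG4. VIT and MATN1 had counts with the ZEB1 vector alone, 7 and 6 of them, while UCMA, HAPLN1 and PRG4 had counts in control replicate 3 alone. An edgeR fit with no low-count filter called 0.693% of all genes. In it SOX5, VIT and MATN1 had an adjusted p of 0.561 to 0.565 and did not pass. For them the fit compares a few counts with 0, and in SOX5 and MATN1 the counts come from 1 library.

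Counts were spread unevenly between libraries throughout the table. Among the 3194 genes with a mean of 1 to 5 counts in the controls, the chi-square per degree of freedom between the 3 control libraries averaged 3.99, where counting error alone gives 1. It averaged 6.15 among the 3402 genes with a mean of 100 to 300 counts, so the excess was not particular to low counts. Of the 2028 genes with 6 to 15 counts summed over the controls, 27.8% had all of them in 1 library, and 3 of the 16 described here did. Whether molecular identifiers were collapsed is not given in the sources used here, and its part in this spread was not tested. Of the 53 genes, 12 had counts in 1 library alone, and 5 of the 12 had theirs in control replicate 3, while each of the other libraries held 1 or 2 of them.

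In each library 14 to 29 of the 53 genes had a count, namely 16, 14 and 21 in ZEB1 replicates 1, 2 and 3, against 21, 22 and 29 in control replicates 1, 2 and 3. With at least 3 counts there were 13, 12 and 17 in the ZEB1 libraries, against 17, 19 and 20 in the controls. At the depth of the smallest library the expected numbers with at least 1 count were 16.0, 13.7 and 17.8 with the ZEB1 vector and 15.9, 17.4 and 20.3 in the controls. The groups overlapped once depth was equal. At that depth 30.2%, 25.9% and 33.6% of the 53 genes would have a count with the ZEB1 vector and 30.0%, 32.9% and 38.3% in the controls. Of all genes in the table, 42.9%, 45.2% and 46.6% would have one with the ZEB1 vector and 48.1%, 48.0% and 48.6% in the controls. At that depth the share was lower for the 53 genes than for all genes in every library, a difference that was not tested. As deposited, 54.7% of the 53 genes and 53.9% of all genes had a count in control replicate 3.

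**Figure D2:**
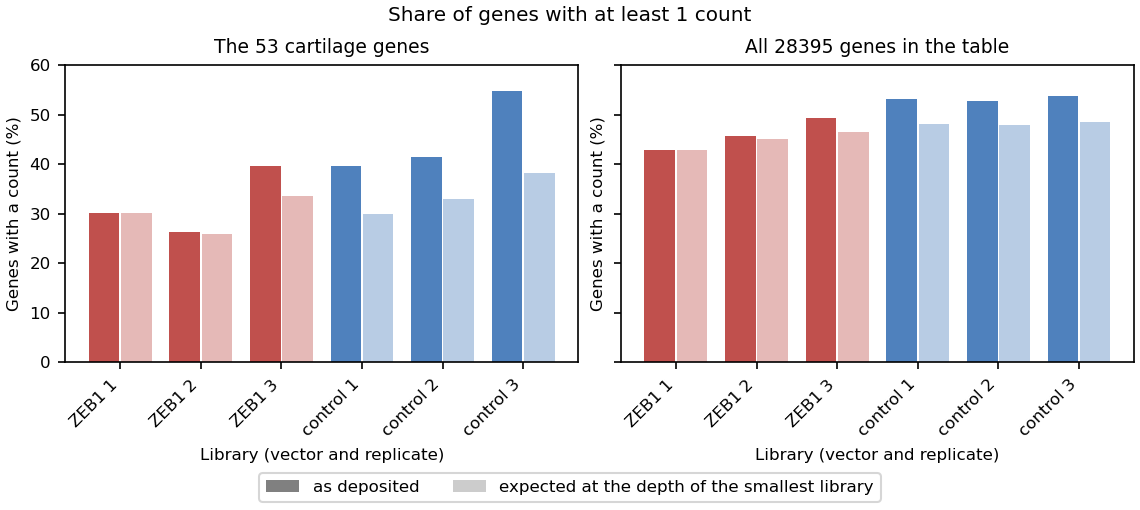
Percent of genes with at least 1 count in each library, for the 53 genes (left) and for all 28395 genes (right), as deposited (dark bars) and as calculated for 1277632 counts (pale bars), with the ZEB1 libraries in red and the controls in blue. The pale bars of the 53 genes span 25.9% to 33.6% in the ZEB1 libraries and 30.0% to 38.3% in the controls, below 42.9% for all genes in every library.

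BGN, COL27A1 and FRZB were the matrix and secreted genes with enough counts to be tested. BGN (Entrez 633, chromosome X, 153494980 to 153509546) encodes biglycan, a small leucine-rich proteoglycan of cartilage, bone and fibrous tissue. It had 49, 103 and 185 counts in the ZEB1 libraries, against 497, 451 and 342 in the controls, or 43.5, 66.2 and 55.1 CPM against 79.7, 82.2 and 55.8 CPM. The groups overlapped, since ZEB1 replicate 2 lay above control replicate 3. The means were 55.0 ± 11.3 CPM with the ZEB1 vector and 72.6 ± 14.6 CPM in the controls (SD, n = 3 each), and the log2 fold change of -0.39 (SE 0.22) had an edgeR adjusted p of 0.622. It was -0.55 to -0.28 on leaving out single libraries and negative in all 18 alternatives run. Decorin, the closest relative of biglycan, encoded by DCN, had 2 counts over the ZEB1 libraries and 5 over the controls.

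COL27A1 (Entrez 85301, chromosome 9, 114154098 to 114312511) encodes a fibrillar collagen chain made in cartilage. It had 20, 33 and 141 counts in the ZEB1 libraries, against 137, 229 and 315 in the controls, or 17.8, 21.2 and 42.0 CPM against 22.0, 41.7 and 51.4 CPM. ZEB1 replicates 1 and 2 lay below all 3 controls, and replicate 3 lay among them. ZEB1 over control gave a log2 fold change of -0.44 (SE 0.35, edgeR adjusted p of 0.764). It was -0.97 without ZEB1 replicate 3 (adjusted p of 0.185), -0.74 without control replicate 1, -0.23 and -0.27 without ZEB1 replicates 1 and 2 in turn, -0.19 without control replicate 3 and 0.13 without both shallow libraries. With all libraries thinned to 1277632 counts in a single random draw it was -0.04 (SE 0.46). Its sign thus changed without the 2 shallow ZEB1 libraries, where ZEB1 replicate 3 was the only ZEB1 library left. The thinned value has too wide an SE to settle its size at equal depth.

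FRZB (Entrez 2487, chromosome 2, 182833275 to 182866637) encodes a secreted Wnt antagonist of articular cartilage. It had 0, 6 and 12 counts in the ZEB1 libraries and 18, 15 and 30 in the controls. At 0, 3.86 and 3.57 CPM against 2.89, 2.73 and 4.90 CPM the groups overlapped. The log2 fold change was -0.38 (SE 0.93, edgeR adjusted p of 0.937), with 0.07 once the ZEB1 library at 0 counts was left out.

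RUNX3 (Entrez 864, chromosome 1, 24899511 to 24965138) was the 1 gene of the 8 tested whose libraries did not overlap between the vectors. It encodes a RUNX transcription factor that acts with RUNX2 in chondrocyte hypertrophy. It had 81, 99 and 286 counts in the ZEB1 libraries, against 640, 584 and 634 in the controls. In CPM these were 72.0, 63.7 and 85.2 with the ZEB1 vector and 103, 106 and 103 in the controls. All 3 ZEB1 libraries lay below all 3 controls, and the controls differed little among themselves. The means were 73.6 ± 10.9 CPM with the ZEB1 vector and 104 ± 2.01 CPM in the controls (SD, n = 3 each). On the log2 scale the difference was -0.49 (SE 0.18), and with an edgeR adjusted p of 0.368 (0.0147 unadjusted) it did not pass. Of all genes tested, 15.1% had groups that did not overlap, 8.16% with the ZEB1 libraries below, and 1 of 8 is not set apart from that share. The value was negative in all 18 alternatives run and -0.63 to -0.40 on leaving out single libraries, and its lowest adjusted p was 0.0768, without ZEB1 replicate 3, in a fit that called 3.38% of all genes tested. Without both shallow ZEB1 libraries, which leaves ZEB1 replicate 3 alone against the controls, the value was -0.30. At equal depth it was -0.55 (SE 0.25).

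RUNX2 (Entrez 860, chromosome 6, 45328330 to 45551082), the main transcription factor of hypertrophy and of bone formation, had 8, 4 and 36 counts in the ZEB1 libraries and 37, 88 and 44 in the controls. The levels of 7.11, 2.57 and 10.7 CPM with the ZEB1 vector and 5.93, 16.0 and 7.18 CPM in the controls overlapped, with the highest value in control replicate 2. The log2 fold change of -0.45 (SE 0.58, edgeR adjusted p of 0.869) was 0.09 without that control, -0.07 without ZEB1 replicate 2, -1.07 without ZEB1 replicate 3, and -0.72 and -0.64 without control replicates 1 and 3. CBFB, which encodes the partner subunit of the RUNX proteins, had 70.4 ± 12.2 CPM with the ZEB1 vector and 67.0 ± 5.93 CPM in the controls (SD, n = 3 each, log2 fold change 0.08, edgeR adjusted p of 0.944).

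The mineralization genes that could be tested control pyrophosphate, which blocks mineral growth. ENPP1 (Entrez 5167, chromosome 6, 131808020 to 131895155) makes extracellular pyrophosphate. It had 6, 13 and 18 counts in the ZEB1 libraries and 56, 35 and 41 in the controls, with a log2 fold change of -0.22 (SE 0.58, edgeR adjusted p of 0.944). It was -0.46 without ZEB1 replicate 2 and -0.14 and -0.09 without ZEB1 replicates 1 and 3, and it was -0.06 without control replicate 1. ANKH (Entrez 56172, chromosome 5, 14704800 to 14871778), whose product raises pyrophosphate outside cells, had 34, 71 and 106 counts in the ZEB1 libraries and 183, 180 and 153 in the controls. Its levels were 30.2, 45.7 and 31.6 CPM with the ZEB1 vector and 29.4, 32.8 and 25.0 CPM in the controls, and ZEB1 replicate 2 was the highest library. Its log2 fold change was 0.30 (SE 0.28, edgeR adjusted p of 0.807), with 0.09 without that library, 0.20 to 0.39 on leaving out any other and 0.11 without both shallow ZEB1 libraries. ANKH and SOX9 were the 2 of the 8 tested genes with a positive value.

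**Figure D3:**
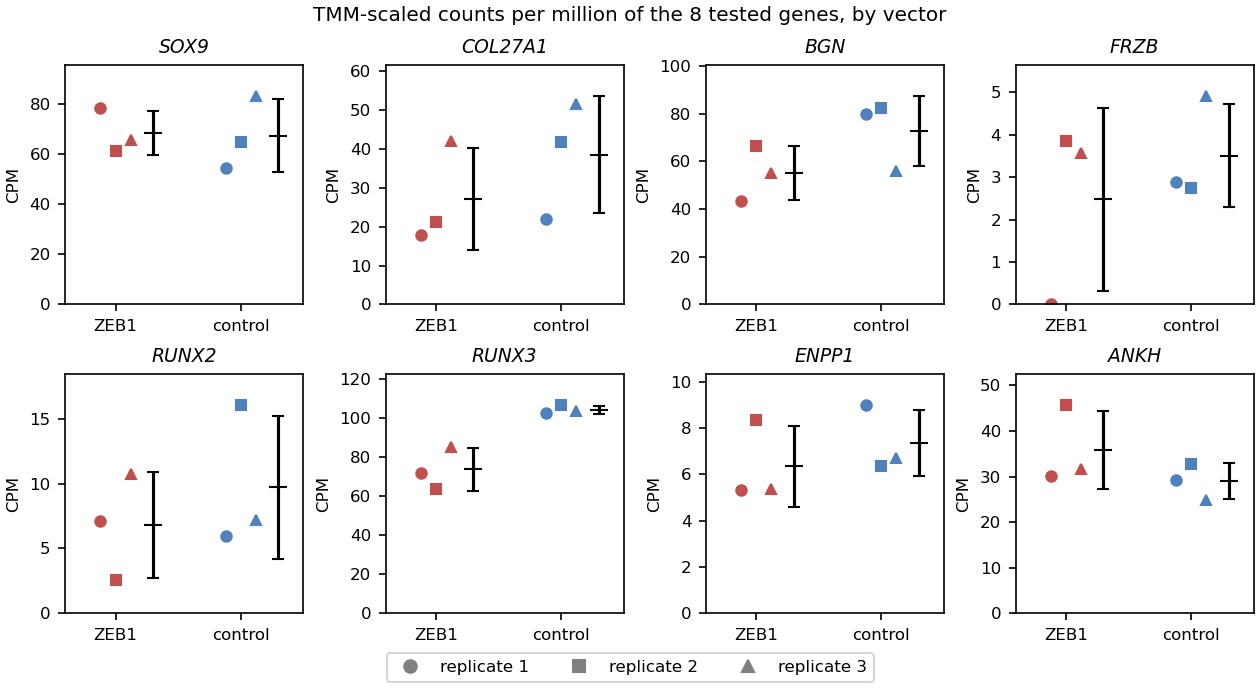
TMM-scaled CPM of the 8 tested genes in each library, with 1 panel a gene, the ZEB1 libraries in red and the controls in blue, replicate numbers as symbols, and the mean ± SD of 3 libraries in black. In RUNX3 the ZEB1 libraries sit between 63.7 and 85.2 CPM, all below the controls, and in the other 7 genes the groups overlap.

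Of the 20 hypertrophy and bone genes, 5 had no count in any library. They were COL10A1, the collagen that defines hypertrophic cartilage, the bone matrix genes IBSP and BGLAP, the channel gene PANX3, and MEF2C, a transcription factor of hypertrophy. BGLAP lies within the readthrough locus PMF1-BGLAP. Other genes at 0 also overlap another gene in RefSeq, such as COL10A1 with NT5DC1 and CHAD with ACSF2. Reads at such loci could have been left uncounted. ALPL, the alkaline phosphatase that degrades pyrophosphate, had 1, 0 and 11 counts in the ZEB1 libraries and 8, 38 and 10 in the controls, and 38 of its 68 counts lay in control replicate 2. PHOSPHO1, a phosphatase of matrix vesicles, had 0, 4 and 0 counts, against 0, 11 and 3. PTH1R, the receptor for PTHrP, which holds chondrocytes back from hypertrophy, had 8, 0 and 0 counts in the ZEB1 libraries and 0, 4 and 5 in the controls. IHH, the hedgehog ligand that acts in a loop with PTHrP, had its 6 counts in ZEB1 replicate 3. SP7, the osteoblast transcription factor, had its 6 counts in control replicate 1.

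BMP4, a growth factor that drives chondrocyte differentiation, had 9, 0 and 18 counts in the ZEB1 libraries and 8, 10 and 13 in the controls. Summed over libraries this was 27 counts with the ZEB1 vector and 31 with the control vector, from libraries of unequal depth. ZEB1 replicates 1 and 3 lay above the controls per total counts, and ZEB1 replicate 2 was at 0. DLX5, a homeobox gene of bone formation, had 10, 0 and 2 counts in the ZEB1 libraries and 0, 1 and 9 in the controls. BMP2 had its 3 counts in control replicate 3, and BMP6 had its 1 count in ZEB1 replicate 1. SPP1, which encodes osteopontin, had 1 count with the ZEB1 vector and 8 in the controls, and SPARCL1 had 3, all in control replicate 1.

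Taken as sums, the 53 genes made up 291, 291 and 320 CPM in ZEB1 replicates 1, 2 and 3, against 316, 372 and 354 CPM in control replicates 1, 2 and 3, so that the groups overlapped at their ends. The 45 genes that were not tested made up 36.4, 18.01 and 20.6 CPM with the ZEB1 vector and 9.94, 18.8 and 16.5 CPM in the controls. The median log2 fold change of the 8 tested genes was -0.39, beside -0.01 for all 11329 genes tested, and 6 of the 8 were negative, beside 51.5% of all genes. The filter on low counts keeps a gene that is high enough in 1 group alone, so these figures describe the 8 genes and support nothing. Without both shallow ZEB1 libraries the median was -0.01, and at equal depth, where 5 of the 8 could be tested, it was -0.15. In whole cultures, fewer cells that express a gene and less of its RNA per cell cannot be told apart.

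**Figure D4:**
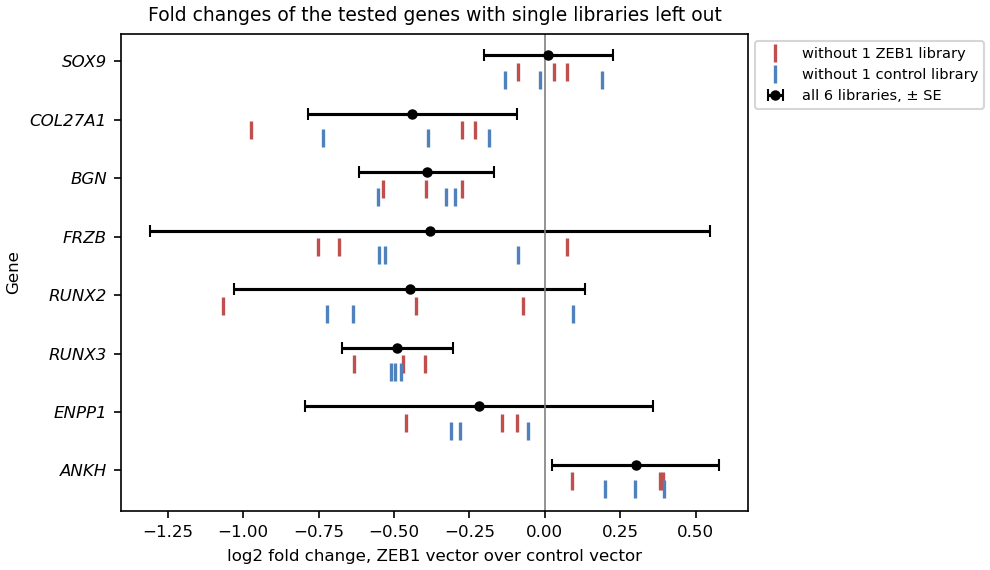
The log2 fold change of each tested gene, ZEB1 vector over control vector, with all 6 libraries (black, ± SE) and with 1 ZEB1 library (red) or 1 control library (blue) left out. Values without single libraries stay negative for RUNX3, BGN, COL27A1 and ENPP1 and positive for ANKH, and take both signs for SOX9, FRZB and RUNX2.

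Regulators of cartilage outside the 53 genes were better counted. Of 53 such genes (receptors, SMADs, hedgehog and FGF genes and cofactors of SOX9 and RUNX2), 51 had a count and 39 were tested, of which 0 passed the edgeR threshold in either direction. At an unadjusted p under 0.05 there were 1 higher and 2 lower, beside 5.83% and 3.57% of all genes. In 5 of the 39 the ZEB1 libraries all lay below the controls and in 2 all above, beside 8.16% and 6.96% of all genes. The 3 with the highest counts were GREM1, a BMP antagonist, FGFR1 and the mechanosensitive channel gene PIEZO1. GREM1 had 192 ± 26.3 CPM with the ZEB1 vector and 221 ± 31.1 CPM in the controls, with a log2 fold change of -0.20, and FGFR1 had -0.05. PIEZO1 had 106 ± 34.4 CPM with the ZEB1 vector and 152 ± 3.89 CPM in the controls (SD, n = 3 each), a log2 fold change of -0.49 (SE 0.19, edgeR adjusted p of 0.411). Its levels were 76.4, 97.1 and 144 CPM in ZEB1 replicates 1, 2 and 3, against 153, 147 and 155 CPM in the controls. The low values were thus those of the shallow ZEB1 replicates 1 and 2, and ZEB1 replicate 3 lay close to the controls.

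Another pair of these regulators, named after their values were seen, had the remaining unadjusted p-values under 0.05. ZNF219, a cofactor of SOX9, had 2, 0 and 5 counts in the ZEB1 libraries, against 36, 43 and 26 in the controls. Its ZEB1 libraries all lay below the controls, as in 8.16% of all genes, with a log2 fold change of -2.39 (SE 0.94) and an edgeR adjusted p of 0.411. SUFU, the negative regulator of hedgehog signalling, had 14, 33 and 82 counts in the ZEB1 libraries, against 49, 56 and 65 in the controls. Its ZEB1 libraries all lay above the controls in CPM, as in 6.96% of all genes, with a log2 fold change of 1.05 (SE 0.40) and an edgeR adjusted p of 0.377. Neither passed the threshold.

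Genes listed as markers of dedifferentiated chondrocytes and fibroblasts ranged from abundant to nearly absent, in both groups. Some of them, such as VIM, CD44 and the type VI collagen genes, are not particular to those cells. ACTA2 and PDGFRA had 0 counts in each ZEB1 library and 0 to 6 in each control, and COL1A2 and LUM also had too few counts to be tested. All 26 had counts and 22 were tested, with 0 past the edgeR threshold in either direction, and an unadjusted p under 0.05 was found for 1 higher and 7 lower, beside 5.83% and 3.57% of all genes. The 1 higher was S100A4 (log2 fold change 0.84), and the 7 lower were COL1A1, COL6A1, COL6A2, COL6A3, FN1, CCN2 and POSTN. In 6 of the 22 the ZEB1 libraries all lay below the controls and in 0 all above, beside 8.16% and 6.96% of all genes. The list as a whole was not tested. Their summed level was 4613 to 5215 CPM in the ZEB1 libraries and 5886 to 6010 CPM in the controls, so that the groups did not overlap, against 150 to 175 CPM and 165 to 204 CPM for the 33 cartilage genes. The 3 with the highest counts were the intermediate filament gene VIM, COL6A1 and the fibronectin gene FN1, with log2 fold changes of 0.07, -0.52 and -0.33 and edgeR adjusted p of 0.924, 0.265 and 0.485. The median of the 22 was -0.21, beside -0.01 for all genes.

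Markers of leukocytes, endothelium, fat and muscle were near 0. Of 16, 11 had a count and 3 were tested, and CD3E, MS4A1, ADIPOQ, MYOD1 and MYH2 were at 0 in all libraries. Their summed level was 17.8 to 23.8 CPM in the ZEB1 libraries and 15.1 to 19.6 CPM in the controls. The 3 with the highest mean CPM were CD68, PECAM1 and FABP4, with 10.1, 5.94 and 2.26 CPM with the ZEB1 vector and 11.2, 1.44 and 1.39 CPM in the controls on average. None passed the edgeR threshold. At an unadjusted p under 0.05 there was 1 of the 3, higher with ZEB1, beside 5.83% of all genes. It was the endothelial marker PECAM1, with 4, 12 and 22 counts in the ZEB1 libraries, against 9, 6 and 11 in the controls. Its ZEB1 libraries all lay above the controls in CPM, as in 6.96% of all genes, with a log2 fold change of 2.04 (SE 0.87, edgeR adjusted p of 0.462). All libraries are labelled as the TC28a2 line, and the source of these counts was not tested.

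**Figure D5:**
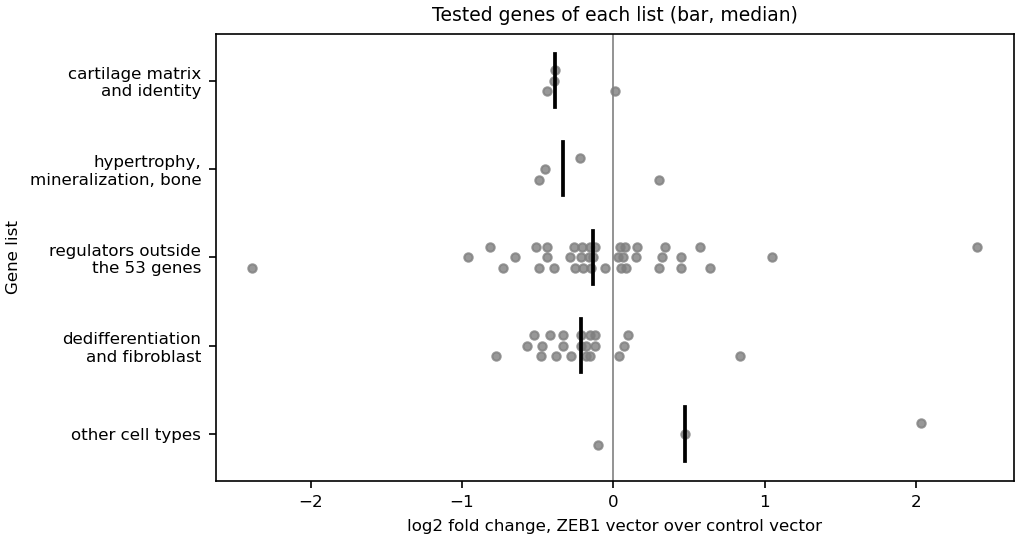
The log2 fold change, ZEB1 vector over control vector, of each tested gene in 5 gene lists, with the median of each list as a bar. The medians are -0.39 for 4 cartilage genes, -0.33 for 4 hypertrophy genes, -0.13 for 39 other regulators, -0.21 for 22 dedifferentiation markers and 0.47 for 3 markers of other cell types.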

How the data were processed

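Total RNA was extracted with TRIzol and sequenced as DRUG-seq libraries, per the labels' protocols. The values are raw counts per Entrez gene ID, as deposited. Per the submitters' processing notes, which give no versions, the authors used HISAT2 with featureCounts of Subread on GRCh38. Which annotation release and strand setting were used, and how molecular identifiers were handled, is not given in the sources used here, so reads of BGN and HAUS7, RUNX2 and SUPT3H, ANKH and OTULIN or RUNX3 and RUNX3-AS1, which overlap in RefSeq, may have been mixed or dropped. Symbols came from a RefSeq table of GRCh38.p14, which matched 27745 of 28395 IDs and all 53 genes.

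The test was edgeR's (4.0.16, in R 4.3.3; quasi-likelihood, robust dispersions, TMM factors, filterByExpr, group as the only term, two-sided), with Benjamini-Hochberg adjustment over the 11329 genes tested and a threshold of 0.05. Each standard error is the fold change over the root of F. CPM values are scaled by TMM, except the floor of 3 counts. Counts expected at 1277632 counts come from the hypergeometric formula. Fold changes at equal depth, or after thinning, come from a single random draw. Alternatives used DESeq2 1.42.0 and limma 3.58.1. The test was checked on simulated counts. The genes, lists and tests were chosen with earlier results of these data known. All 53 genes are accounted for: tested genes with counts, fold change, SE and adjusted p, and others with counts per library from 10 counts. From other lists the 3 with the highest CPM and any that passed are named. Further genes of those lists are named outside this rule, some after their values were seen.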

Additional observations from a re-analysis of the deposited data

How the results depend on the processing

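None of the 53 genes passed in any alternative that tested them. The count of all genes past the threshold was 1 in the edgeR test, 127 with no low-count filter, 58 with limma-voom, 154 with limma-voom and sample quality weights, 205 with DESeq2, 3 after thinning to the smallest library, and 1 to 409 when any 1 library was left out (409 without ZEB1 replicate 3). The fit without both shallow ZEB1 libraries was chosen after seeing the data. It holds ZEB1 replicate 3 as the only ZEB1 library, so its count is not given. DESeq2 adjusted over 1765 genes, and none of the 53 was among them. RLE and upper-quartile factors, library size only, a mean count of at least 20, dispersions without robust estimation and an adjusted p of 0.1 left the count within 1.5 times. With the replicate number as a block the count was 1 and RUNX3 had an adjusted p of 0.522. Same-numbered libraries did not deviate together (correlations of -0.0533, -0.0107 and 0.000602), and no library correlated best with its own number. ZEB1 replicates 1, 2 and 3 correlated best with control replicates 2, 3 and 1 (0.0673, 0.0187 and 0.0735). Correlations this near 0, from 3 libraries in each group, cannot settle whether same-numbered libraries were handled together.

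SOX9 turned negative with library size only (-0.12), with no low-count filter (-0.0100), after thinning (-0.15), with quality weights (-0.0062) and without both shallow libraries (-0.045), and its range when any 1 library was left out was -0.13 to 0.19, of which -0.088, -0.13 and -0.016 without ZEB1 replicate 1 and control replicates 1 and 2. Without both shallow libraries COL27A1 was 0.13, FRZB 0.020 and RUNX2 0.14. When any 1 library was left out FRZB ranged from -0.75 to 0.072 (0.072 without ZEB1 replicate 1) and RUNX2 from -1.07 to 0.093 (without control replicate 2). The cause of these changes was not tested. The number of the 53 genes with a count in at least 1 library was 29 with the ZEB1 vector and 35 with the control vector, and 26.9 and 28.2 are expected at the smallest depth, where fewer reads by construction leave fewer genes with a count. FRZB, ENPP1 and RUNX2, the tested genes with the fewest counts, had standard errors of 0.58 to 0.93, against 0.18 to 0.35 for the other 5 tested. At equal depth 5 of the 8 were tested, with a median of -0.15.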
